A study of Homo sapiens with 30 samples.

Results

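Of the 81661 autosomal loci at which chromatin accessibility was listed as different between control and HNF6 knockout HUES8 cells, 731 were listed in 1 direction at 3 or more of 5 stages of pancreatic differentiation. They were found by pooling, for each genotype, the listed regions of its 5 stages and by joining regions that overlapped or touched into loci. A locus was kept when the joined regions came from at least 3 stages. In the control lists, which hold regions more accessible in control cells, 102 of 27000 loci met the rule (0.378%). In the knockout lists, which hold regions more accessible in knockout cells, 629 of 54661 loci met it (1.15%). Listing in the same contrast chose these loci, so their ratios between the genotypes are given as a description and were not tested.

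The data come from ATAC-seq of 30 samples in 10 groups of 3. HUES8, an established line of human embryonic stem cells, was studied as wild-type control and as HNF6 knockout. Each genotype was sampled undifferentiated (ESC) and, during differentiation in vitro, as definitive endoderm (DE), at the gut tube stage (GT), as pancreatic endoderm (PE) and as pancreatic progenitors (PP). The labels do not say how many knockout clones were used, or whether each of the 3 samples was differentiated on its own, so their spread may be technical. Differences that separate the knockout line from the control line for other reasons than the deletion cannot be told apart from differences that follow the deletion, nor can a different mix of cells be told apart from different accessibility per cell.

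In ATAC-seq a transposase cuts open DNA more often than DNA wrapped in nucleosomes, so that enhancers and active promoters give high values. HNF6, encoded by ONECUT1, is a homeodomain transcription factor known for its part in the development of the pancreas, where it acts upstream of the endocrine lineage, and of the liver. Pancreatic differentiation passes from pluripotent cells through endoderm and the primitive gut tube to progenitors, and much of the accessible chromatin changes at each of these steps.

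The 10 deposited lists hold 89929 regions, 89274 of them autosomal, and 2783 to 24647 autosomal regions each. Every region carries 3 values for control and 3 for knockout cells. The position of a value within its set of 3 is not tied to a replicate number. No 2 of the value columns were identical, and the median log2 distance of a library from the mean of the other libraries of its set ranged from -0.21 to 0.30 over the lists. Whether the values are read counts or scaled numbers is not stated, and values of different stages come from separate tables, so levels are set side by side only within a stage. Library totals were not analysed here, and the depth is unknown. A stage at which a locus is not listed has no value for that locus. Positions are on hg19. The genes and the sequence at the loci were not analysed here, since no hg19 annotation or genome was used.

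Most of the loci met the rule at exactly 3 stages. In the control lists 89 loci were listed at 3 stages, 9 at 4 and 4 at all 5. In the knockout lists these numbers were 555, 67 and 7. At least 1 position was covered by regions of 3 or more stages in 75 of the 102 control loci and in 444 of the 629 knockout loci. The other 27 and 185 loci were chains of regions that touched or overlapped from stage to stage without a position common to 3 of them.

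The stages that carried the loci differed between the directions. Knockout loci were listed most often at PP (533 of 629), then at PE (433), DE (418), ESC (327) and GT (257). Their commonest combinations were DE, PE and PP with 124 loci, ESC, PE and PP with 117, and DE, GT and PP with 99. Control loci were spread more evenly, with 71 of 102 listed at ESC, 71 at PE, 63 at DE, 63 at PP and 55 at GT. Their commonest combinations were ESC, PE and PP with 15 loci and DE, GT and PE with 12. Of the 71 control and 327 knockout loci listed in undifferentiated cells, 61 and 316 were also listed at PE or PP. The rule nearly fixes this. A locus listed at ESC could miss both only in the combination ESC, DE and GT, with 10 control and 11 knockout loci. The lists differed in length. The knockout lists held 24647 autosomal regions at PP, 11810 at DE, 11341 at ESC, 7500 at GT and 5469 at PE, so that PE, with the shortest of them, carried the second most knockout loci. The shortest of all, with 2783, was the control GT list. With every list cut to 2783 regions by the authors' p, 37 control and 57 knockout loci met the rule.

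**Figure D1:**
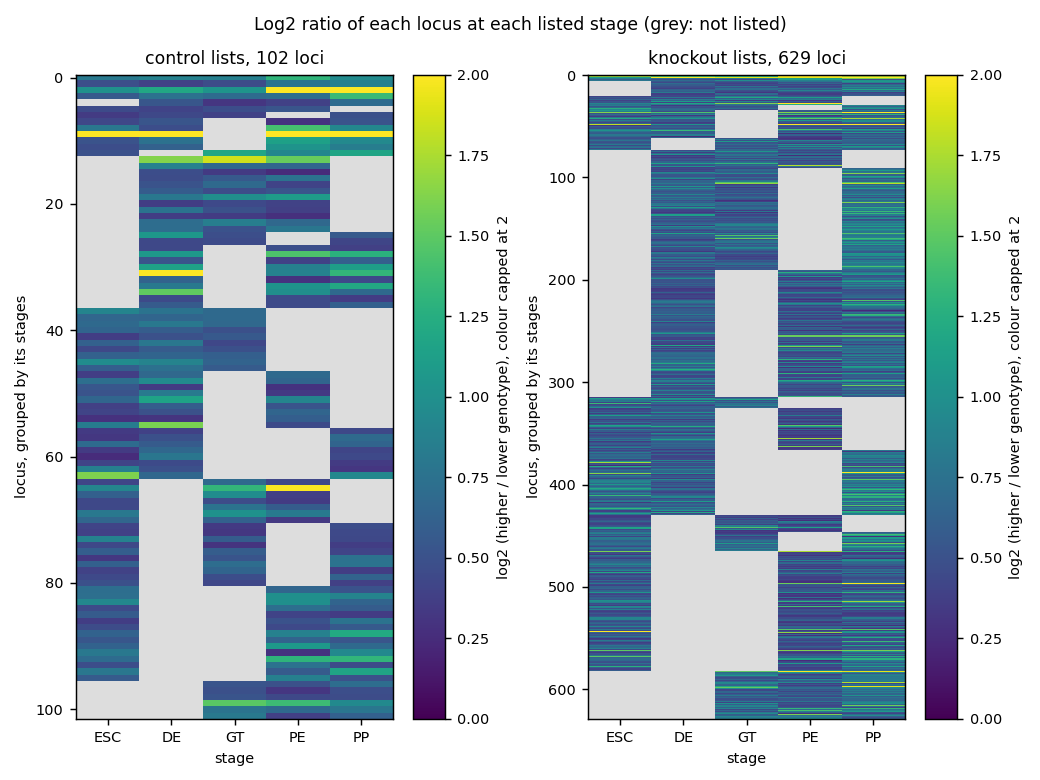
Log2 ratio of the higher over the lower genotype (colour, capped at 2) for each of the 102 control loci (left) and 629 knockout loci (right) at each stage, with loci grouped by their stages and grey where a locus was not listed. Grey gaps are fewest at PP in the knockout panel, where 533 loci were listed, and at most loci the colour stays in the lower part of the scale.

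The differences were moderate at most loci. The mean log2 ratio over the listed stages had a median of 0.59 in the control loci and of 0.62 in the knockout loci, the latter a 1.54-fold difference. Loci listed at 1 stage had medians of 0.93 and 1.04. At the weakest listed stage the medians of the repeatedly listed loci were 0.44 and 0.47. A mean log2 ratio of at least 1, which is a 2-fold difference, was found in 12 control and 50 knockout loci. Among loci of 1 stage, whose mean is their only ratio, 44.5% in control and 53.2% in knockout reached it. All listed stages were at least 2-fold in 4 control loci (3.92%, background over all merged control loci 42.8%) and in 11 knockout loci (1.75%, background 48.9%). Most merged loci are of 1 stage and have to meet this once. Among loci of 2 stages the shares were 10.7% and 7.84%. These shares belong to the contrast that chose the loci.

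Width went with the number of stages. The median width was 2350 bp in the control and 2650 bp in the knockout loci, against 700 bp in loci of 1 stage in either direction, and joining regions widens a locus by construction. Among loci between the quartiles of these widths, 1600 to 3237.5 bp for control and 1900 to 3800 bp for knockout, the order of the ratios turned: the median log2 ratio was 0.58 at 3 or more stages and 0.52 at 1 stage in control, and 0.63 and 0.53 in knockout.

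**Figure D2:**
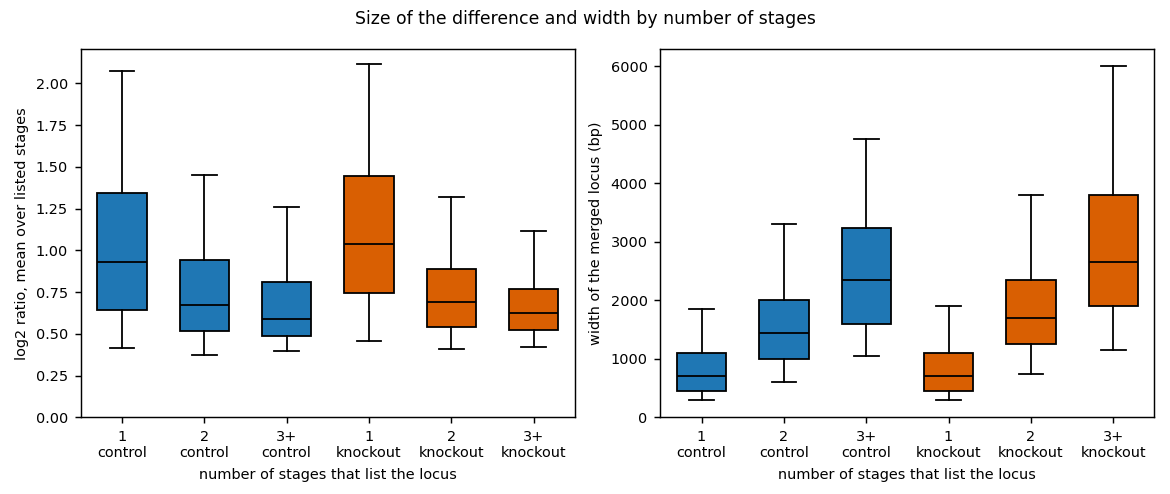
Mean log2 ratio over the listed stages (left) and width in bp (right) of loci listed at 1, 2 and 3 or more stages in the control (blue) and knockout (orange) lists. Boxes show quartiles with the median as a line, and whiskers run from the 5th to the 95th percentile. Ratios fall and widths rise from 1 stage to 3 or more, with median widths of 700 bp at 1 stage and of 2350 and 2650 bp at 3 or more.

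The 3 values of one genotype lay wholly above the 3 of the other at every listed stage in 47 of 102 control loci (46.1%, background over all merged control loci 77.8%) and in 279 of 629 knockout loci (44.4%, background 76.7%). A locus of 3 stages has to meet this 3 times and a locus of 1 stage once. Taken stage by stage, separation was complete in 251 of 323 control entries (77.7%, background over the regions of the control lists 78.5%) and in 1520 of 1968 knockout entries (77.2%, background 78.3%), which is close to the background in both. With 3 values against 3, a two-sided exact permutation test of 1 locus at 1 stage cannot give a p under 0.1.

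The ratio of a locus varied between its stages. The strongest and the weakest listed stage of a locus differed by a median log2 of 0.28 in control (quartiles 0.16 and 0.45) and 0.30 in knockout loci (0.19 and 0.47). PP was the strongest stage in 292 knockout loci and PE the weakest in 207. Over the 533 knockout loci listed at PP the median log2 ratio there was 0.72, against 1.08 over all regions of that list. Over the 433 listed at PE it was 0.51, against 0.60. In the control loci DE was strongest in 24 of the 63 listed there, PP in 23 of 63 and PE in 22 of 71. GT was strongest in 18 of 55 and ESC in 15 of 71. The weakest stage was most often ESC, in 31 control loci, followed by PE, in 28. Across loci listed at both stages of a pair, Spearman's rho of the log2 ratios ranged from 0.44 (ESC and PP, 44 loci) to 0.69 (GT and PE, 32 loci) in control, and from 0.26 (DE and PP, 339 loci) to 0.56 (ESC and PP, 249 loci) in knockout. These correlations are across loci, which are not independent replicates, and loci of a stage share its 6 libraries.

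The largest difference lay on chromosome 15, at chr15:53075451-53082550, a control-list locus of 7100 bp listed at ESC, DE, PE and PP. ONECUT1 is a gene of chromosome 15, per RefSeq's table for GRCh38.p14, and whether the locus lies in it was not analysed here. Summed over the locus in the authors' deposited table, the ESC values were 2718, 3002 and 2779 in the control libraries and 18, 17 and 9 in the knockout libraries. Summed over 2 regions of the authors' deposited table, the DE values were 802, 772 and 753 in the control libraries and 38, 0 and 0 in the knockout libraries. Summed per locus and stage, these are the lowest knockout levels among the named loci, at 0.518% of the control mean at ESC and 1.63% at DE. At PE the sums over 2 regions of the authors' deposited table were 2478, 2510 and 2533 in the control libraries and 58, 53 and 115 in the knockout libraries. At PP the sums, again over 2 regions, were 919, 767 and 671 against 26, 45 and 27. The summed knockout mean was 4.16% of control at PP, the highest share of the 4 stages. The sums cover different stretches at each stage, so these shares do not rank the stages. In the authors' deposited table, the knockout libraries had 3, 0 and 0 in the left PE region and 55, 53 and 115 in the right one. At PP they had 2, 0 and 0 in the left region and 24, 45 and 27 in the right one. The genotypes were far apart in every library, and the mean log2 ratio over the 4 stages was 5.73, a 53.0-fold difference. The 500 bp from 53081401 to 53081900 were covered at all 4 stages. The locus has no GT entry.

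Its right end behaved otherwise at ESC. The abutting region, 53082401 to 53083300, was in the knockout list at ESC, with 337, 326 and 485 in the control libraries and 549, 505 and 674 in the knockout libraries in the authors' deposited table, so every knockout library was above every control library there. Another pair of control-list loci lay to its right, chr15:53087201-53089650 and chr15:53096251-53098650, each listed at GT, PE and PP. The former had a mean log2 ratio of 1.27 with complete separation at all 3 stages, for example 770, 969 and 690 in the control libraries against 298, 259 and 379 in the knockout libraries at PE in the authors' deposited table. No position of it was covered at more than 2 stages. The latter, named after its values were seen, had a mean log2 ratio of 0.74, and the genotypes separated completely at PE but overlapped at GT and PP. With 3 loci, the block from 50 to 55 Mb of chromosome 15 held as many control loci as any 5 Mb block, and 48 merged control loci in all.

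**Figure D3:**
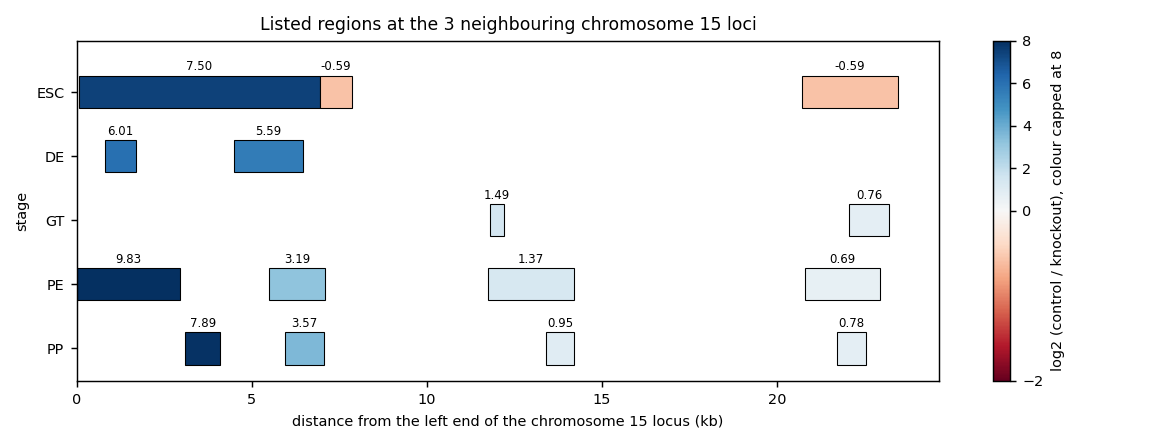
Listed regions at the 3 neighbouring chromosome 15 loci, by stage (rows) and distance from the left end of the first locus in kb, coloured by the log2 ratio of control over knockout, which is written above each region and capped at 8 in colour. Ratios are highest in the leftmost locus, and the regions at -0.59 at ESC are the ones listed in the opposite direction.

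Only 4 control loci were listed at all 5 stages. The one with the largest ratio, chr2:114359751-114362200, was at least 2-fold at every stage, with a mean log2 ratio of 1.55. The authors' deposited table gave its ESC values as 520, 577 and 382 in the control libraries and 228, 291 and 214 in the knockout libraries. At DE they were 475, 379 and 353 against 132, 184 and 208 in the authors' deposited table, and at GT 650, 666 and 495 against 395, 269 and 220. The genotypes were separate at each of these stages with log2 ratios of 1.01, 1.20 and 1.03. The ratio was larger at PE, with 2.15, and at PP, with 2.34, where the knockout mean was 19.6% of control. All 5 stages covered the 1050 bp from 114361001 to 114362050.

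A smaller difference recurred on chromosome 12 at chr12:127650301-127651600, with log2 ratios between 0.81 at ESC and 1.31 at PE. The authors' deposited table gave its PE values as 1048, 1415 and 1483 in the control libraries and 528, 523 and 537 in the knockout libraries. Its ESC values there were 352, 343 and 243 against 262, 146 and 125. The genotypes did not overlap at GT, PE and PP, and their ranges overlapped at ESC and DE. At chr5:172654651-172658050 the log2 ratio was 0.56 at ESC and 1.36 at PP, with separation at all 5 stages, though the PP values were low in the authors' deposited table (66, 80 and 115 in the control libraries, 21, 52 and 27 in the knockout libraries). No position of this locus was covered at more than 4 stages. The mildest of the group, chr19:28283951-28285900, was also separate at all 5 stages, with log2 ratios from 0.39 at DE to 0.86 at PP.

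Higher accessibility in the knockout at all 5 stages was listed at 7 loci. Among those separate at each stage, the largest mean log2 ratio was 1.72, at chr19:37742301-37743150. The authors' deposited table gave ESC values of 100, 166 and 97 in the control libraries and 315, 454 and 432 in the knockout libraries. The GT values there, its weakest stage, were 79, 78 and 80 against 174, 220 and 172. At both stages, and at DE, PE and PP, every knockout library was above every control library, and the log2 ratio ran from 1.25 at GT to 2.48 at PE.

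At chr22:18879801-18880300, a locus of 500 bp, the mean log2 ratio was 1.94, the highest of all knockout loci. In the authors' deposited table the DE values were 34, 49 and 47 in the control libraries and 320, 257 and 192 in the knockout libraries, and the ESC values were 185, 33 and 105 against 182, 196 and 335. Knockout cells were higher in every library at DE, GT, PE and PP. At ESC 1 control library lay within the knockout range, and the log2 ratio there was 1.14, the lowest of its stages.

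A further 3 short loci differed with complete separation at each stage. The locus chr10:38382901-38384050 had log2 ratios from 0.99 at DE, where the authors' deposited table gave 190, 73 and 83 in the control libraries and 210, 263 and 218 in the knockout libraries, to 1.88 at PE. At chr18:14430901-14431700 the range was 0.89 at GT to 1.52 at DE. For chr5:115298101-115299650 it was 0.75 at DE to 1.60 at PP, where the authors' deposited table gave 120, 112 and 101 in the control libraries and 465, 277 and 273 in the knockout libraries.

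The remaining knockout loci of all 5 stages were wider and milder. The 7350 bp of chr8:143817301-143824650 had log2 ratios between 0.71 at DE and 1.03 at PP, again with separation at every stage. For chr6:31742201-31747750, in 5550 bp, the log2 ratio was 0.41 at GT, where the values overlapped, and 1.13 at PE. These wide loci had no position covered at all 5 stages.

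**Figure D4:**
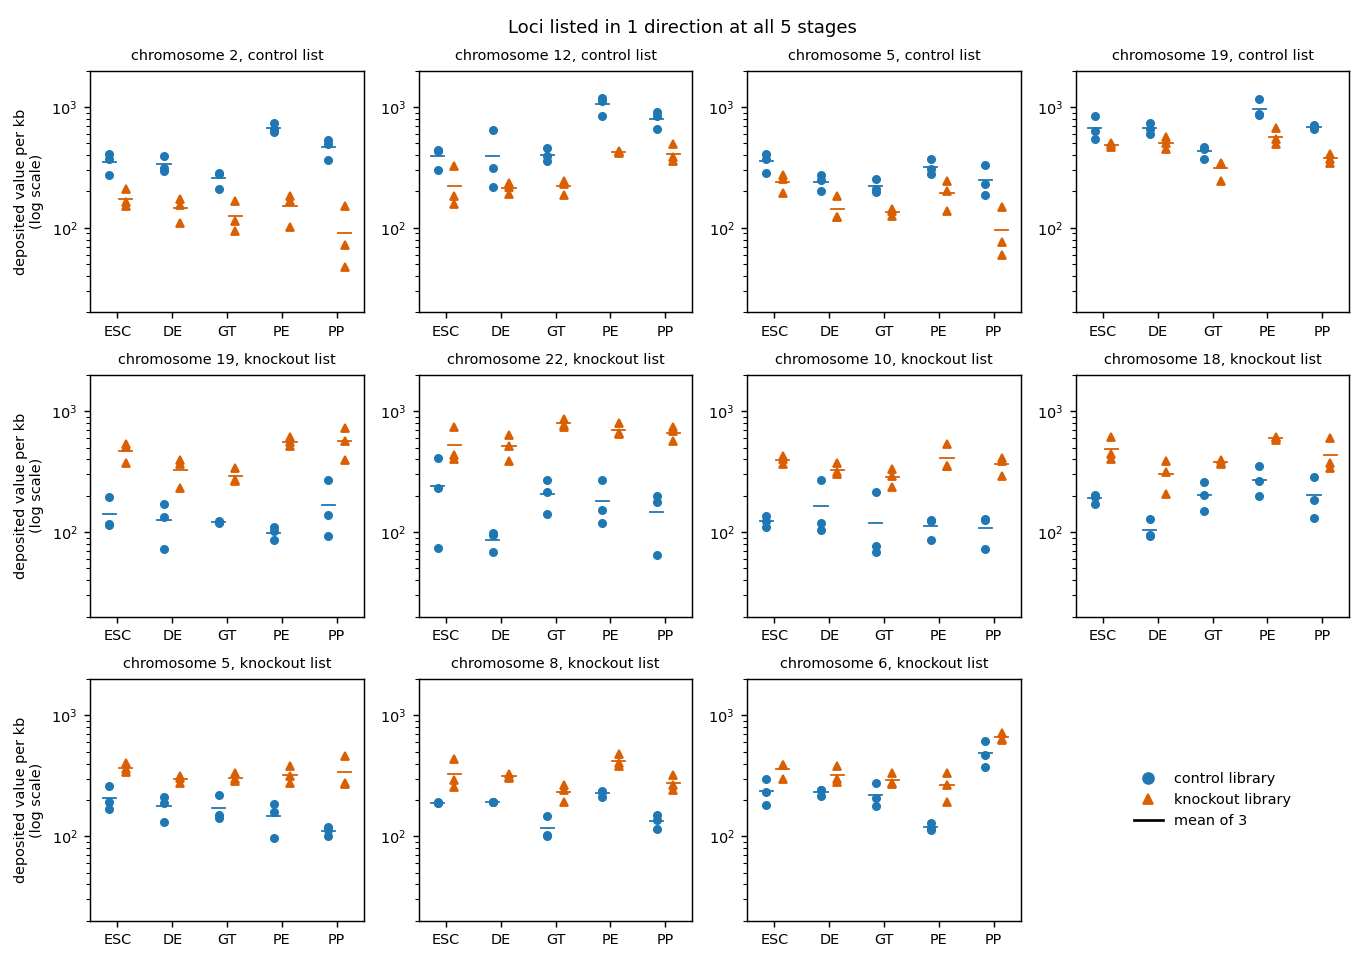
Deposited values per kb of listed region (log scale) in each control library (blue circles) and knockout library (orange triangles) at each stage, for the 4 control and 7 knockout loci listed at all 5 stages, with horizontal lines for the mean of 3. Levels are comparable within a stage only, and the genotypes stay apart at each of the 5 stages in 3 of the 4 control and 5 of the 7 knockout loci.

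Over all loci of exactly 4 stages the median of the mean log2 ratio was 0.74 in the 9 control and 0.62 in the 67 knockout loci, and those named were chosen for a large ratio at their weakest stage. At chr1:149155951-149156650 the mean log2 ratio was 1.78, with ESC values of 51, 38 and 61 in the control libraries and 128, 179 and 162 in the knockout libraries in the authors' deposited table. A neighbouring locus, chr1:149137751-149138450, was listed at ESC, PE and PP with a mean log2 ratio of 1.53. Both were separate at each listed stage. The locus chr5:42756401-42757800 reached a log2 ratio of 2.22 at PP, where the authors' deposited table gave 19, 57 and 70 in the control libraries and 265, 215 and 211 in the knockout libraries. At chr19:24097251-24098200 the log2 ratio was 1.06 at DE and 1.73 at PP. The other 5 named knockout loci of 4 stages, on chromosomes 6, 8 and 10, had mean log2 ratios from 0.90 to 1.42.

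In the control direction, the other named loci of 4 stages lay between mean log2 ratios of 0.42 and 0.94. The upper end was chr10:6204951-6206300, which was not listed at DE, and for which the authors' deposited table gave GT values of 222, 139 and 250 in the control libraries and 116, 67 and 85 in the knockout libraries. At chr11:2017501-2021500 the log2 ratio was 1.41 at PE and 0.47 at DE, where the genotypes overlapped. Summed over 2 regions of the authors' deposited table, its PE values were 1109, 1118 and 1255 in the control libraries and 435, 248 and 626 in the knockout libraries. The lower end was chr7:104653551-104655850, whose genotypes were nevertheless separate at all 4 listed stages.

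Loci of exactly 3 stages included some of the larger ratios. At chr1:110230251-110230700, a control locus of 450 bp, the log2 ratio was between 1.53 and 1.86 at DE, GT and PE, from low values such as 99, 53 and 48 in the control libraries and 25, 17 and 11 in the knockout libraries at GT in the authors' deposited table. On chromosome 16, chr16:52299201-52299850 had a log2 ratio of 2.55 at DE and 0.89 at PE. In the knockout direction chr10:3136701-3137150 had a mean log2 ratio of 1.84 at GT, PE and PP, and chr7:56174001-56174500 had 1.57 at ESC, PE and PP. Each of these loci was separate at its 3 listed stages.

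On each side of the threshold of 3 stages, the loci given are those with the highest -log10 p at their least significant stage. They are the most significant loci of their number of stages by this measure, and not borderline cases. With exactly 3 stages these were the control loci chr12:125048751-125051600 (mean log2 ratio 0.91) and chr10:118368301-118369600 (1.41) and the knockout loci chr3:170073951-170076000 (0.43) and chr9:127572501-127575200 (0.58). With exactly 2 stages they were chr11:115588501-115589800 (1.09) and chr1:36115251-36116350 (1.81) in control, and chr11:2147601-2151700 (0.73) and chr17:2777351-2778250 (1.10) in knockout. All 4 of the latter were listed at PE and PP.

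The loci were spread unevenly over the chromosomes. Control loci made up 14.0% of the repeatedly listed loci and 33.1% of all merged loci. The knockout lists were longer, with 60767 autosomal regions against 28507 in the control lists. With every list cut to 2783 regions by the authors' p, 37 control and 57 knockout loci met the rule. The counts by chromosome below were not matched for list length. No autosome held more control than knockout loci, and the numbers were equal on chromosome 7 (15 and 15), chromosome 12 (9 and 9) and chromosome 15 (7 and 7). Control made up 45.7%, 41.0% and 33.8% of all merged loci on these chromosomes. Chromosomes 17 and 22 were at the other end, with 1 control against 55 knockout loci and 0 against 47, where control made up 28.8% and 27.9% of all merged loci. Chromosomes 4 and 13 also held no control locus, beside 18 and 9 knockout loci. They held 632 and 512 merged control loci, which were 20.5% and 30.2% of all merged loci there. Over all autosomes 0.378% of merged control loci met the rule, so few could be looked for on either chromosome.

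**Figure D5:**
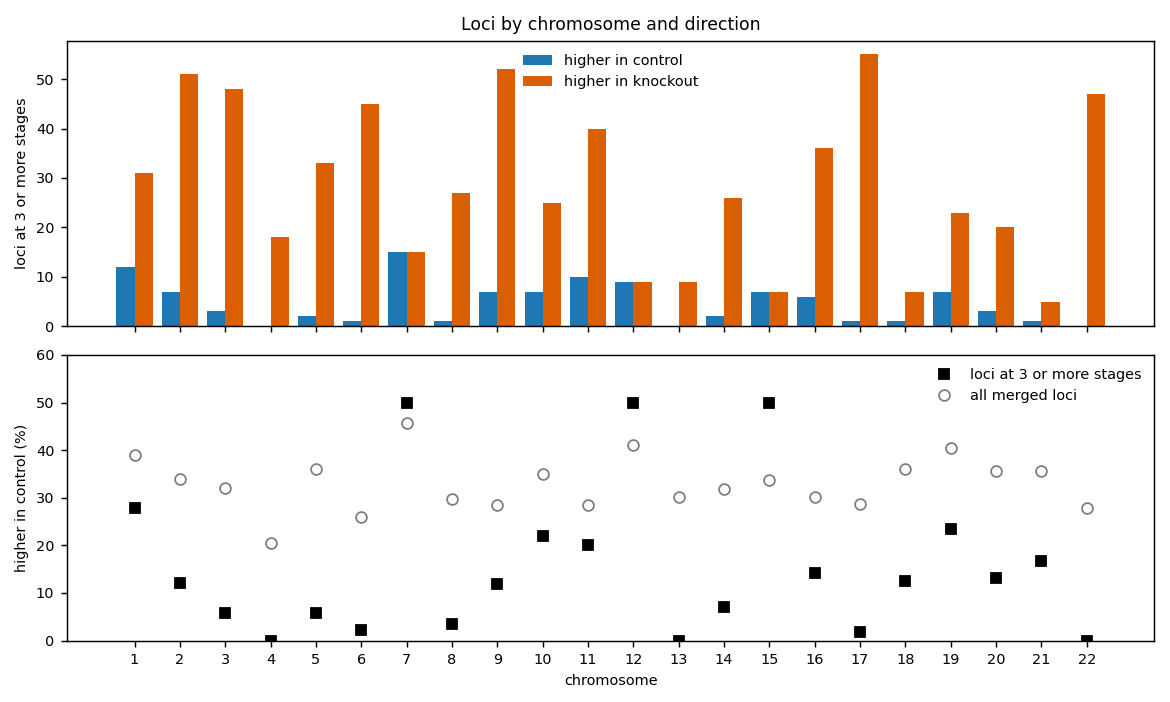
Number of loci listed at 3 or more stages on each autosome (top), higher in control (blue) or knockout (orange), and the control share in percent (bottom) among these loci (squares) and among all merged loci (circles). The squares lie below the circles on 19 of 22 autosomes and at 50% on chromosomes 7, 12 and 15. The shares are not matched for list length, and the knockout lists are longer in total.

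Many knockout loci had another one nearby. Of the 629, 466 (74.1%) had another knockout locus within 1 Mb, with a median distance to the nearest of 0.287 Mb, while 28 of the 102 control loci (27.5%) had another control locus that near. The knockout loci are more numerous, and more loci lie closer together by their number alone. The same share was not computed over all merged knockout loci, so whether these loci lie closer than listed loci in general was not tested. Joined over gaps of up to 1 Mb, 254 knockout loci fell into 26 runs of 5 or more. The run with the most loci was chromosome 9, 136014351 to 140509850, with 23 loci and a median log2 ratio of 0.54. It was followed by chromosome 17, 73266201 to 81040500, with 21 loci (0.54), and by chromosome 8, 143198751 to 145751350, with 16 (0.77). Runs of 16 also lay at chromosome 2, 239146851 to 242815600, and at chromosome 16, 332501 to 4440250. By 5 Mb block, the most knockout loci were in the block from 30 to 35 Mb of chromosome 6, with 17 of 332 merged knockout loci (5.12%). Over all autosomes the share was 1.15%. Blocks within the runs held many merged knockout loci as well. The loci were 16 of 479 from 0 to 5 Mb of chromosome 16 (3.34%) and 15 of 451 from 135 to 140 Mb of chromosome 9 (3.33%). The largest control runs held 3 loci, on chromosome 15, as described above, and on chromosome 7 from 4821851 to 5566850.

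The wild-type clusters, 9 sets of 500 bp regions that the authors grouped from wild-type peaks, played no part in choosing the loci. A cluster region overlapped 31 control loci (30.4%, 95% Wilson interval 22.3 to 39.9, background over all merged control loci 15.1%) and 155 knockout loci (24.6%, 21.4 to 28.2, background 8.3%). Intervals cover counting error only. Among loci of the same width range the shares were near those of loci of 1 stage: 33.3% against 30.8% in control and 21.5% against 20.05% in knockout. Control loci overlapped cluster 1 (13 loci, 12.7%, against 2.07% of all merged control loci) and cluster 6 (10 loci, 9.80%, against 1.59%) most often. Clusters 2 and 3 were overlapped by 0 control loci, and by 1.34% and 1.24% of all merged control loci. Knockout loci were found in all 9 clusters, from 7 loci in cluster 2 (1.11%, against 0.64% of all merged knockout loci) to 30 in cluster 1 (4.77%, against 1.10%). These shares by cluster were not matched for width.

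Same-direction listing at 3 stages did not keep a locus out of the opposite list at another stage. A knockout-list region overlapped 31 of the 102 control loci at a stage that did not list them as control (30.4%, 95% Wilson interval 22.3 to 39.9, background over all merged control loci 18%). For the knockout loci this was so in 107 of 629 (17.0%, 14.3 to 20.1, background 8.85%). In the same width range the shares were 39.2% at 3 or more stages and 44.9% at 1 stage in control, and 18.4% and 24.2% in knockout. Only stages that do not list a locus count here, so a locus of 1 stage has more chances than one of 3 or more. The shares and their backgrounds are therefore not on equal terms, even at equal width. With opposite regions limited to a -log10 p of at least 10, the shares fell to 6.86% and 1.27%. Fewer opposite regions enter under this limit. The share over all merged loci was not computed with it, so these lower shares have no background. For control loci the opposite listing was most frequent at PP, in 13 of the 39 loci not listed there (33.3%, against 8.92% of all merged control loci not listed there), and ESC, in 9 of 31 (29.03%, against 5.01%). It occurred at GT in 0 of 47, against 2.35%. For knockout loci it was most frequent at ESC, in 59 of 302 (19.5%, against 4.81%). These shares were not matched for width, and the knockout PP list is the longest of the 10. At a stage that did list them, 8 control loci (7.84%, background over all merged control loci 0.196%) and 45 knockout loci (7.15%, background 0.216%) touched a region of the opposite list in another part of their span. A locus of 1 region cannot do so, and among loci of 2 stages the shares were 3.62% and 1.63%. In 25 control loci (24.5%, background over all merged control loci 10.6%) and 96 knockout loci (15.3%, background 5.28%), a region with complete separation overlapped an opposite one of another stage that was also completely separate. Between the quartiles of the members' widths these shares were 31.4% at 3 or more stages and 24.3% at 1 stage in control, and 13.9% and 13.4% in knockout. The overlapping loci chr11:63528451-63536200 and chr11:63535401-63538050, named after their values were seen, were in the control lists at DE, GT, PE and PP and in the knockout lists at ESC, GT and PE.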

How the data were processed

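ATAC-seq values and region lists came from the authors' 19 deposited files. The submitters' processing notes name Bowtie2, MACS2 and hg19. Not given in the sources used here: versions, the differential caller, read shifts, scaling and depth. The deposited log2 ratio equals, within rounding, the log2 of the ratio of the 2 means with 1 added to each, and the other deposited column of the authors holds 2 sets of 3 whole numbers and a -log10 p of at least 5. The first set was read as knockout and the second as control, because in each of the 89929 regions that reading makes the genotype named by the list the higher one; it rests on the list names. A -log10 p at its format's maximum is not printed.

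Autosomal regions were joined per genotype where they overlapped or touched. Values were summed per locus and stage, ratios were recomputed with 1 added to each mean, and overlap meant at least 1 bp. Positions are 1-based. Shares carry 95% Wilson intervals. No test was run on the loci. Python 3.11.15, pandas 2.3.3, numpy 2.4.6, SciPy 1.17.1 and matplotlib 3.10.9 were used. On simulated lists 2000 of 2000 loci were recovered, and a direct search over 347 chromosome 21 regions gave 0 disagreements in overlap.

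Loci named are those of all 5 stages, and per genotype the 8 of 4 stages and 5 of 3 stages with the largest weakest-stage ratio and a mean of at least 50 in the higher genotype at every listed stage, plus 2 on each side of the threshold; others are marked. The loci and this rule were chosen with earlier results of these data known. The planned gene lists, stage markers and motifs were not used here, for lack of an hg19 annotation or sequence. Alternatives changed how regions were joined, which regions, stages or values entered, the number added before the log, and the overlap that counts.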

Additional observations from a re-analysis of the deposited data

Results flagged for a closer look

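At 4 named control loci a region of the opposite list with every library on the other side overlapped a control-list region of another stage with every library on the control side. These differences between stages were not tested, and at each of them the opposite region covers another or a longer stretch than the control-list region. At chr10:43695701-43702900 the log2 ratio of control over knockout was 0.53 at PE and -0.62 at PP, where the region from 43700301 to 43701400 had 354, 304 and 227 in the control libraries and 509, 410 and 445 in the knockout libraries in the authors' deposited table. At chr11:63528451-63536200 it was 0.32 at GT and -0.39 at PE, in the region from 63535501 to 63537150. At PE itself this locus was also in the control list, at 63529851 to 63532450, with a log2 ratio of 0.39 and complete separation. At chr15:53075451-53082550 it was 3.19 at PE and 3.57 at PP in the control-list region nearest the right end, and -0.59 at ESC in the region from 53082401 to 53083300, while the rest of the locus had 7.50 in the control list at ESC. At chr15:53096251-53098650 it was 0.69 at PE and -0.59 at ESC, where the authors' deposited table gave 825, 907 and 893 in the control libraries and 1362, 1022 and 1564 in the knockout libraries.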

How the results depend on the processing

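Of 48 alternatives to 8 results, 26 kept the value within its limit (1.5 times for a count) and 22 moved it. The choice of the loci fixes their direction, so no alternative could reverse it. Joining rules kept the counts within that limit. The 102 control and 629 knockout loci became 7 and 19 with regions of a -log10 p of at least 10, and 52 and 303 with completely separated regions only. Leaving out ESC gave 43 and 357, DE 51 and 263, GT 55 and 411, PE 43 and 258, and PP 51 and 157; fewer regions enter in each of these. Requiring a log2 ratio of at least 0.5 without any 1 value left 23 and 92. Alternatives chosen after seeing the data gave 42 and 261 (log2 ratio of at least 0.5 from all values) and 37 and 57 (lists of equal length). The opposite-list shares were 6.86% for control and 1.27% for knockout loci with a -log10 p of at least 10, and the background at that limit was not computed. Leaving out each library, the median log2 ratio ranged from 0.57 to 0.63 in control and 0.60 to 0.65 in knockout loci. No paired analysis was possible because the sets of values carry no replicate numbers and the results come from no test. Depth is unknown, so its limits could not be given.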

Other observations

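With regions limited to a -log10 p of at least 10, 7 control loci on 7 chromosomes and 19 knockout loci on 12 chromosomes were listed at 3 or more stages. Of these, 6 control and 11 knockout loci are among those named by the rule above. The other control locus was chr21:45904951-45906500, listed at DE, PE and PP with log2 ratios from 0.80 to 1.21. Those of the knockout included chr5:177410451-177413000, with log2 ratios from 0.63 to 1.65 at ESC, PE and PP, and chr22:19928151-19930850, with 0.70 to 1.06 at ESC, PE and PP. All of these were named after their values were seen. The median of the mean log2 ratio was 1.02 in these control and 0.94 in these knockout loci. The values of the genotypes were separate at every such stage in 6 of the 7 and 16 of the 19. The limit on -log10 p comes from the same contrast and favours large ratios and separate values. These numbers are therefore a description and were not tested. Over all merged loci, without that limit, separation was complete at every listed stage in 77.8% of control and 76.7% of knockout loci.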
